A study of Caenorhabditis elegans with 2 samples.

Results

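PES-1 is a forkhead transcription factor of Caenorhabditis elegans that is made in a subset of cells of the early embryo. The peaks described here are the sites of its chromatin immunoprecipitation that lay close to the start of a protein-coding gene and away from genes of small RNAs. They were taken from the conservative list of reproducible peaks, which compares the replicates with each other. A peak was kept if its summit fell in a window that opens 250 bp before an annotated transcript 5' end of a protein-coding gene and closes 200 bp after it, and not within 200 bp of a tRNA, snoRNA, snRNA or miRNA gene. Of the 1452 peaks in that list, all of them nuclear, 341 (23.5%) met this rule. The list holds peaks past the authors' threshold of reproducibility between replicates, so signal entered through it. Within the list the rule uses position alone.

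The samples were 2 biological replicates of 1 group, early embryos aged 1 hour, obtained by bleaching. Their strain, RW12239, carries a TY1, EGFP and 3xFLAG tag inserted by CRISPR at the endogenous pes-1 locus, and an antibody to GFP was used, although the antibody label of the samples reads pes-1. Chromatin came from whole organisms, so cells that make the factor and cells that do not were pooled, and no untagged strain or second condition was analysed here. Read depth was not analysed here, so intervals cover the counting of peaks only. The signal of a peak below is the value given by the authors' peak caller. It has no stated unit and no stated scaling between replicates.

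Forkhead factors bind DNA through a winged-helix domain that prefers sites with a core related to GTAAACA. Promoters of this organism are compact, and many transcripts are trans-spliced, so that an annotated 5' end can lie downstream of the place where transcription begins. Neighbouring genes often stand back to back and share the stretch of DNA between their starts.

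The sequences at the strongest promoter-proximal summits are given first because they show the words that recurred among these peaks. They are the 8 strongest among peaks on 5 of the 6 nuclear chromosomes whose window of 50 bp on each side of the summit held no annotated exon. Each is read 5' to 3' along the nearest coding gene from the RefSeq copy of WBcel235, the assembly that ce11 names, and the summit is base 51 of 101. Capitals mark, on either strand, the repeat GAGAGA, the words CTTGCGC and CTGCGTC, the CG-rich word GCGCGC and the GC box GGGCGG, which were the 5 of 18 words searched that were more frequent at summits than upstream of them.
atx-2, chrIII:10461277-10461377, plus strand: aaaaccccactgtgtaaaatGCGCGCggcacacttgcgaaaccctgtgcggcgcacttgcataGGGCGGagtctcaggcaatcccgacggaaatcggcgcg
T13C5.6, chrX:6207815-6207915, minus strand: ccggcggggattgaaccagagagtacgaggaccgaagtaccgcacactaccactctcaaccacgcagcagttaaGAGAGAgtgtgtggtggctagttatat
idhg-1, chrIII:4568688-4568788, plus strand: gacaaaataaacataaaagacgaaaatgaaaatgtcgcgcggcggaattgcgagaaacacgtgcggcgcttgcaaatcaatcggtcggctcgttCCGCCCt
nmad-1, chrIII:5555078-5555178, minus strand: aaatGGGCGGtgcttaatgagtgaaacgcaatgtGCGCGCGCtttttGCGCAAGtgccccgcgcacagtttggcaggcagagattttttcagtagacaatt
Y32B12B.4, chrV:16553103-16553203, plus strand: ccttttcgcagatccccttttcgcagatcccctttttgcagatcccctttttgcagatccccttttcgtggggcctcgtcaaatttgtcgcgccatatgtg
tasp-1, chrIII:10759189-10759289, plus strand: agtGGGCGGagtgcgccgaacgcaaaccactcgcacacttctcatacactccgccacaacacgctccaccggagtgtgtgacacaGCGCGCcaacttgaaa
C16C10.4, chrIII:4171130-4171230, plus strand: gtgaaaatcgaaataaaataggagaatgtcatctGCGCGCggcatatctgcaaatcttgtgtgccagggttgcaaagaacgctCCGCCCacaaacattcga
krr-1, chrV:7231008-7231108, plus strand: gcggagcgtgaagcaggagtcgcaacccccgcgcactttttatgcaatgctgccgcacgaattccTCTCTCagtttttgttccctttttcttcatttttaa
GCGCGC stood in the windows of atx-2, nmad-1, tasp-1 and C16C10.4, and GGGCGG in these 4 and in that of idhg-1. GAGAGA was in those of T13C5.6 and krr-1, and nmad-1 also had CTTGCGC. The window of T13C5.6 also held GGTTCAA on the other strand, a near form of the tRNA promoter word GGTTCGA, which was the only form searched. Whether this window resembles a tRNA gene was not tested. The window of Y32B12B.4 held none of the 5 words, and carried a short unit in several tandem copies. No window of the 8 held GTAAACA on either strand, and that of idhg-1 held the variant ATAAACA.

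The strongest peak was that of atx-2, which encodes ataxin-2, an RNA-binding regulator of translation. Its peak at chrIII:10461175-10461462 had a signal of 481 in replicate 1 and 564 in replicate 2, and of 1037 in the joint list, with the summit 62 bp upstream of the 5' end. Next came T13C5.6, with 463 in replicate 1 and 518 in replicate 2, and a joint signal of 986 at chrX:6207705-6208057. The peak of ears-2, the mitochondrial glutamyl-tRNA synthetase gene, at chrIV:390346-390636, had 417 in replicate 1 and 523 in replicate 2, and 938 jointly. It was shared with uncp-18, whose 5' end faces away from that of ears-2. At idhg-1, a subunit gene of the NAD-dependent isocitrate dehydrogenase, the values were 398 in replicate 1 and 478 in replicate 2, and 872 jointly. These 4 peaks had the 4 highest signals among promoter-proximal peaks in either replicate, and replicate 2 was higher at each.

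The gap to the fifth peak was wide. At nmad-1, a gene of the family of DNA demethylases related to AlkB, the signal was 306 in replicate 1 and 368 in replicate 2, with 660 jointly. Y32B12B.4 followed with 283 in replicate 1 and 297 in replicate 2, and 584 jointly. The gene tasp-1, a taspase (threonine aspartase) homologue, had 233 in replicate 1 and 366 in replicate 2, and 581 jointly. The remaining 13 of the 20 strongest ran from a joint signal of 550 at B0495.9 to 419 at tre-1, a trehalase gene. Among them were krr-1, of ribosome biogenesis, which shares its peak with gei-6 (503), algn-13, of protein N-glycosylation, whose peak is also that of R10D12.13 (472), plrg-1, of the spliceosome (447), dnj-29, of the DnaJ family (441), the sorting nexin gene snx-13 (436) and sas-5, required for centriole duplication (433). The sperm gene spe-48 shared its peak with Y51F10.11 (549), and the RING finger gene rnf-121 with C16C10.4 (519). C46F11.4 (469), C16A11.2 (442) and K10D2.5 (435) complete the 20. Of these, K10D2.5 was the exception in being higher in replicate 1, at 233 against 208 in replicate 2. The plrg-1 summit had a signal of 187 in replicate 1 and no summit within 200 bp in the ranked list of replicate 2.

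**Figure D1:**
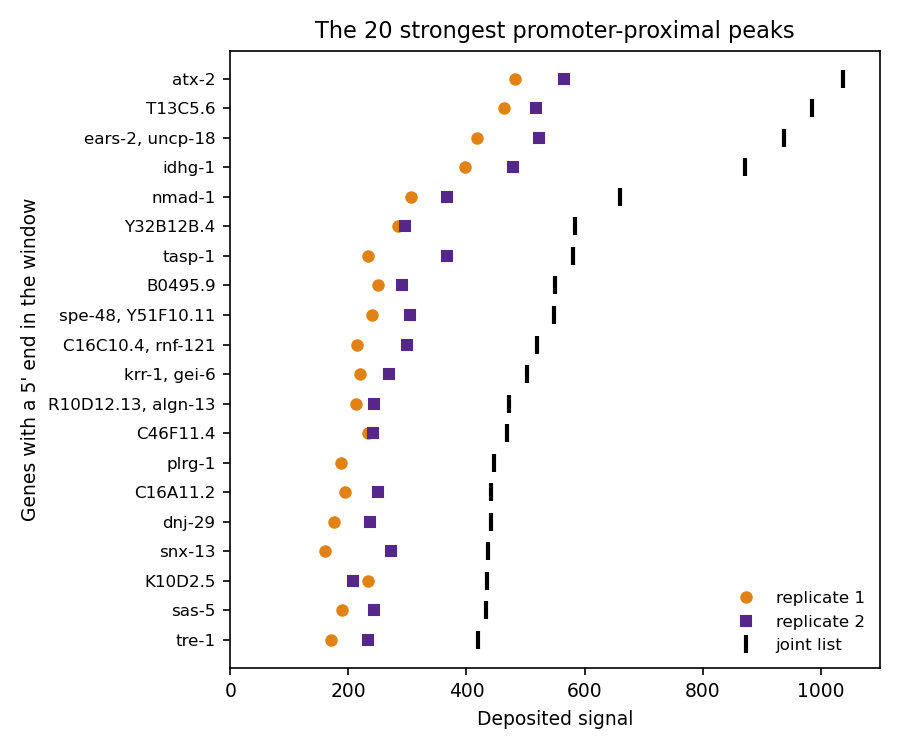
Deposited signal (horizontal axis) of the 20 strongest promoter-proximal peaks, each row named by the genes with a 5' end in the window. Circles are replicate 1, squares replicate 2 and black ticks the joint list. The first 4 peaks, from atx-2 at 1037 to idhg-1 at 872, stand apart from nmad-1 at 660.

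Across all 341 peaks the joint signal ranged from 3.08 to 1037, with a median of 154 and quartiles of 119 and 224. In replicate 1, 338 had a summit within 200 bp in that replicate's full ranked list, with signals of 38.6 to 481 and a median of 67.1. In replicate 2 it was 333, with signals of 48.0 to 564 and a median of 90.7. The joint signal was close to the sum of the replicates' values, at a median of 0.999 times that sum. In 5 peaks it was below both, among them tfg-1 with the lowest joint signal (3.08). Each of the 5 overlaps another peak of the list, and in 4 of them the nearest summits of both replicates were 150 to 199 bp away, so their replicate values may belong to the neighbouring peak.

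Signals in the replicates followed each other across peaks. Over the 330 peaks found in both ranked lists, Spearman's rho was 0.665, and Pearson's r of the log2 signals was 0.81, as descriptions of peaks that were selected for being reproducible. Replicate 2 was higher at 266 and replicate 1 at 64, and the log2 ratio of replicate 2 over replicate 1 had a median of 0.35 and an SD across peaks of 0.42. Most peaks thus had the higher value in replicate 2, and since no scaling between the replicates is stated, the ratio is given as a description. Over the peaks of replicate 1's list alone the median was 0.22, and over those of replicate 2's list alone 0.44.

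**Figure D2:**
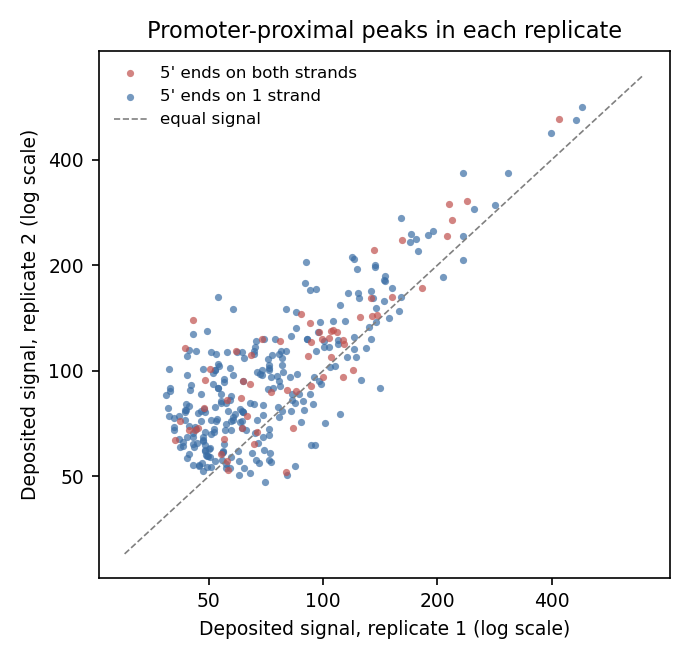
Signal of the 330 promoter-proximal peaks found in both replicates' ranked lists, replicate 1 on the horizontal and replicate 2 on the vertical axis (both log scales). Points are peaks, coloured by whether coding 5' ends of both strands lie in the window. Of these, 266 lie above the dashed line of equal signal and 64 below it.

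Reproducibility by the stricter measure, a summit in each replicate's own thresholded list, went with strength. These lists are themselves thresholded by IDR, so a difference between strong and weak peaks was largely built in. In replicate 1's list 192 of 341 peaks (56.3%) had a summit within 200 bp, in replicate 2's list 220 (64.5%), and in both lists 153 (44.9%). A further 106 were in 1 of the lists and 82 in neither. Of the 85 strongest peaks, 84 were in both lists, and of the 85 weakest, 2 were.

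Set beside other peaks away from small RNA genes, promoter-proximal peaks were more often in both lists than intronic or intergenic ones. The share was 44.9% for promoter-proximal peaks against 24.6% of 244 intronic peaks, a difference of 20.3 percentage points (95% Newcombe interval 12.5 to 27.6, two-sided Fisher's exact test, adjusted p = 2.49e-06). It was 31.8% of 233 intergenic peaks, a difference of 13.1 points (5.00 to 20.9, Fisher's exact test, adjusted p = 0.0035). Against the 218 upstream promoter peaks, whose summits lay beyond the window and up to 1000 bp upstream, the other share was 41.7%, and the difference of 3.12 points (-5.30 to 11.4) did not pass (Fisher's exact test, adjusted p = 0.485). Of the 6 shares compared in this way, 3 (50%) passed. The test treats peaks as independent and describes these lists, not a difference between samples. Median joint signals ran alongside, at 154 for promoter-proximal peaks, 141 for upstream promoter peaks, 125 for intergenic and 118 for intronic peaks, and their part in the shares was not tested. Among peaks with an irreproducible discovery rate (IDR, an estimate of how many called peaks fail to replicate) at or under 0.001, neither difference passed, at -3.80 points against intronic peaks and 2.84 against intergenic ones (Fisher's exact test, adjusted p = 0.902 for both).

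Summits lay mostly upstream of the annotated start. Of the 341, 286 (83.9%) were upstream of the nearest coding 5' end, 1 was on it and 54 were downstream, with a median position of -116 bp and quartiles of -169 and -33 bp. The fullest bins were those from -175 to -151 bp and from -150 to -126 bp, with 42 summits each. By annotation, 246 summits were outside coding genes, 44 in an intron, 28 in a coding exon and 23 in an annotated untranslated region (UTR). The window itself reaches farther upstream than downstream, so these counts describe the peaks within it.

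**Figure D3:**
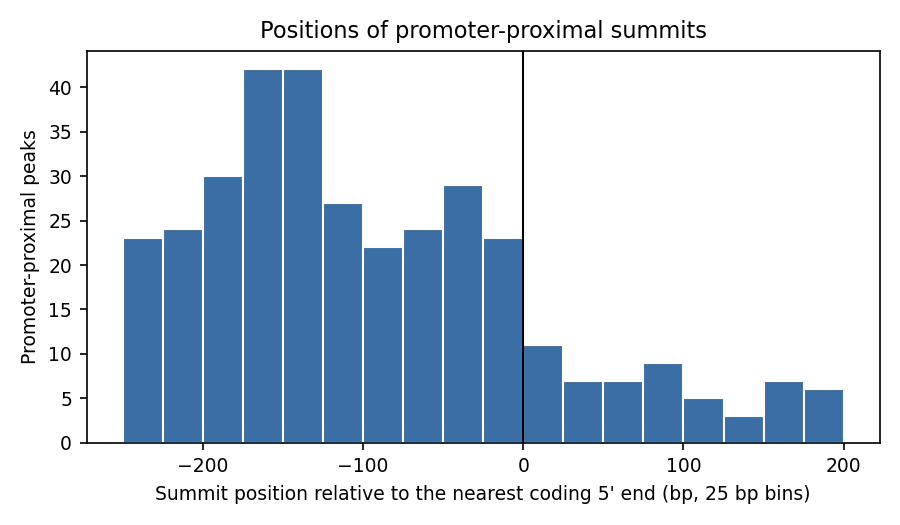
Number of promoter-proximal peaks (vertical axis) by the position of the summit relative to the nearest coding 5' end, in bins of 25 bp, with the start marked by a line. The 2 bins from -175 to -126 bp hold 42 summits each, and no bin downstream of the start holds more than 11.

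Strength and replication varied with position. Summits from -150 to -51 bp had a median joint signal of 176, and 65 of 115 (56.5%) were in both replicates' lists. From -250 to -151 bp the median was 162 and 54 of 119 (45.4%) were in both. Around the start, from -50 to 49 bp, it was 139, with 26 of 70 (37.1%), and from 50 to 200 bp it was 112, with 8 of 37 (21.6%). Summits past 50 bp downstream thus had the lowest median and the lowest share, and the strongest of them was that of his-60, at 340. These position classes were drawn up with the data in view and not tested against each other.

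The edges of the window cut through a continuous distribution. Just inside the upstream edge were summits at -250 bp by Y39B6A.43 (joint signal 14.8) and atp-2 (131) and by the translation initiation factor gene eif-3.B (255), and just outside those of W03F8.4 (199) and, at -252 bp, of eif-3.C (474), of the same factor. Downstream, Y75B8A.33 at 195 bp (116) and sms-3 at 190 bp (194) were the last inside, and hip-1 at 227 bp (67.5) and then spd-5 (859), a gene of the centrosome scaffold, the first outside. The strongest of these were outside, at spd-5 and eif-3.C, and those inside ran from 14.8 to 255.

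Part of these peaks lay near coding starts of both strands, with some of the summits inside a gene, as at his-18 and his-17. Coding 5' ends of both strands lay in the window of 62 peaks (18.2%), and 390 protein-coding genes had at least 1 peak, which is 1.95% of the 19973 annotated. The joint signal had a median of 193 at the 62 shared peaks and of 147 at the other 279, with overlapping ranges of 8.28 to 938 and 3.08 to 1037. Among the 328 genes nearest to a peak, 98 (29.9%, 95% Wilson interval 25.2 to 35.0%) had an opposite-strand coding 5' end within 500 bp upstream, against 8.99% of the 19583 coding genes without a peak (8.60 to 9.40%). For a same-strand gene that ends within 500 bp upstream, a spacing found in operons among other places, the share was 16.2% (12.6 to 20.5%) of the genes nearest to a peak and 18.2% (17.7 to 18.7%) of the genes without one. Back-to-back genes offer the rule more 5' ends per stretch of DNA, and the part this has in the first difference was not tested.

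Chromosome X held few of the peaks. It had 23 of 341 (6.74%, 4.54 to 9.92%) and carries 13.7% of coding genes, and 0.806% of its coding genes had a peak. The highest shares of genes with a peak were on chromosome III, at 3.33%, and chromosome I, at 2.85%, and chromosome V, the richest in genes, had 1.28%. Of intergenic peaks away from small RNA genes, 19.7% were on X, and the difference of promoter-proximal minus intergenic peaks, -13.0 points (-19.0 to -7.41), passed (Fisher's exact test, adjusted p = 1.07e-05). Against upstream promoter peaks, 10.6% of which were on X, it was -3.81 points (-9.07 to 0.857, Fisher's exact test, adjusted p = 0.175), and against intronic peaks, at 9.02%, -2.27 points (-7.07 to 2.09, Fisher's exact test, adjusted p = 0.416). Neither of these passed.

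Among gene lists, histones had the highest share of genes with a promoter-proximal peak. The lists are sets of genes by name, chosen with earlier results of these data known, so their counts are descriptions, to be read against the 1.95% of all coding genes. Of 72 histone genes, 17 (23.6%, 15.3 to 34.6%) had a peak, through 13 peaks, and 13 genes did by the nearest 5' end alone. The pair his-67 and his-68 shared a peak with 161 in replicate 1 and 236 in replicate 2 (407 jointly). That of his-60 had 161 in replicate 1 and 162 in replicate 2, with its summit 155 bp downstream of the start. The peak shared by his-3 and his-4 had 135 in replicate 1 and 143 in replicate 2. In all 13, both replicates had a signal. The list includes the linker histone gene his-24, with 78.1 in replicate 1 and 109 in replicate 2. Core histone genes have near-identical copies, and how the authors placed reads that match several copies is not given in the sources used here, so a peak at a single copy is uncertain.

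The lists on DNA replication, transcription, pre-mRNA processing and the cell cycle had shares of 9.09 to 12.5%. For DNA replication, 4 of 32 genes (12.5%) had a peak. They were mcm-3AP (269), which is in the list by its name, pole-1 and pola-1, catalytic subunits of replicative polymerases (192 and 168), and psf-1, of the GINS complex (111). The general transcription factor and Mediator list had 6 of 56 (10.7%), led by the Mediator genes mdt-9 (190), mdt-26 (181) and mdt-22 (138) and by gtf-2H3 (128), of the factor TFIIH. Splicing and pre-mRNA processing had 8 of 77 (10.4%), led by the cleavage and polyadenylation genes cpsf-1 (249) and cpf-2 (236), then mog-3 (164) and rnp-6 (144). The pair rsp-1 and rsp-2, which encode SR splicing proteins, shared a peak (140). RNA polymerase subunits had 2 of 22 genes (9.09%), rpac-19 (213) and rpb-11 (186), and cyclins and cell cycle kinases 4 of 43 (9.30%), cdk-9 (326), cdc-48.1 (304), cki-1 (131) and cdk-7 (111). The genes cdc-48.1, cki-1 and cdk-9 are in this list by their names, and no cyclin gene is among the 4. The gene cdc-48.1 encodes an AAA ATPase that unfolds ubiquitin-tagged proteins. The Wilson intervals of these 5 lists begin above 1.95%, the lowest of them at 2.53% for the polymerase subunits. They treat genes as independent, although genes can share a peak, and describe lists chosen with earlier results known. Counting the nearest 5' end alone, the Mediator list had 3 genes and the splicing list 5, while DNA replication, polymerase subunits and cell cycle kept their counts. At an IDR of 0.001 DNA replication had 3 genes and each of the others 2.

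Respiration and protein folding were covered by 3 lists. The respiratory chain list had 5 of 49 genes (10.2%), the cytochrome oxidase subunit genes cox-5B (286) and cox-6B (222), nduf-11 of complex I (170), and the ATP synthase genes atp-1 (155, the stronger of its peaks) and atp-2 (131). Heat shock and DnaJ chaperones had 5 of 51 (9.80%), dnj-29, dnj-28 (279), dnj-13 (199), dnj-9 (128) and hsp-3 (61.1), an endoplasmic reticulum chaperone of the BiP type. Of 14 chaperonin and prefoldin genes, pfd-5 (246) and cct-7 (121) had a peak (14.3%, 4.01 to 39.9%), the second highest share of the lists and one with a wide interval. With the nearest 5' end alone counted, this list had 1 gene, the respiratory chain list 4 and the chaperone list still 5. Of 26 nuclear pore genes 1 had a peak, npp-8 (338, a share of 3.85%), and of 33 proteasome genes 1, pbs-7 (121, a share of 3.03%), and both intervals contain 1.95%.

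Of the lists on translation, that of cytoplasmic ribosomal proteins had the highest share. Cytoplasmic ribosomal protein genes had a promoter-proximal peak in 6 of 81 cases (7.41%, 3.44 to 15.2%), with rps-20 at 336, rpl-7A at 228, rps-12 at 209 and rpl-12 at 170. By the nearest 5' end alone it was 4 of 81, and the peaks of rps-20 and rps-12 lay nearer to ekl-4 and ska-3. Mitochondrial ribosomal protein genes had 3 of 70 (4.29%, 1.47 to 11.9%), mrps-35 and mrpl-39 at 197 and 196 and mrps-23 at 114. Translation factors had 2 of 42, eif-3.B (255) and the elongation factor gene eef-2 (192), and aminoacyl-tRNA synthetases 2 of 32, ears-2 and yars-2 (158). The last 3 lists have intervals that contain 1.95%.

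In the lists of developmental regulators and of genes of differentiated cells, counts were low, as were the sizes of most lists. No peak was found for the 15 forkhead genes, 63 ceh homeobox genes, 21 T-box genes, 25 hlh genes, 23 bZIP genes, 56 maternal and germ granule genes or 175 collagen genes, nor for the 20 vacuolar ATPase and 19 RNA helicase genes. The intervals of these 9 lists all contain 1.95%, and they end between 2.15% for collagens and 20.4% for forkhead genes, so a share like that of all coding genes was not distinguishable from 0 at these list sizes. The lists go by name, so they leave out genes of these families with other names. Among those, the homeobox gene unc-62 (141) and the helix-loop-helix gene mdl-1 (182) had a peak. A single GATA factor gene of 10, elt-6 (119), had a peak (10%, 1.79 to 40.4%). So did 2 of 269 nuclear hormone receptor genes, nhr-47 (179) and nhr-49 (127), a share of 0.743% (0.204 to 2.67%). The intervals of both lists contain 1.95%. Of 1310 chemoreceptor genes, only srh-16 (274) did (0.0763%, 0.0135 to 0.431%), and this interval lies below 1.95%. In the full ranked list, which is not thresholded, 5846 coding genes (29.3%) had a peak in the window, among them 6 of the 15 forkhead, 21 of the 63 ceh, 6 of the 21 T-box, 11 of the 25 hlh, 13 of the 23 bZIP and 24 of the 175 collagen genes. The pes-1 gene itself (chrIV:5002748-5005486) had no peak in its window, and none of the 74874 nuclear peaks of the full ranked list lay there.

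**Figure D4:**
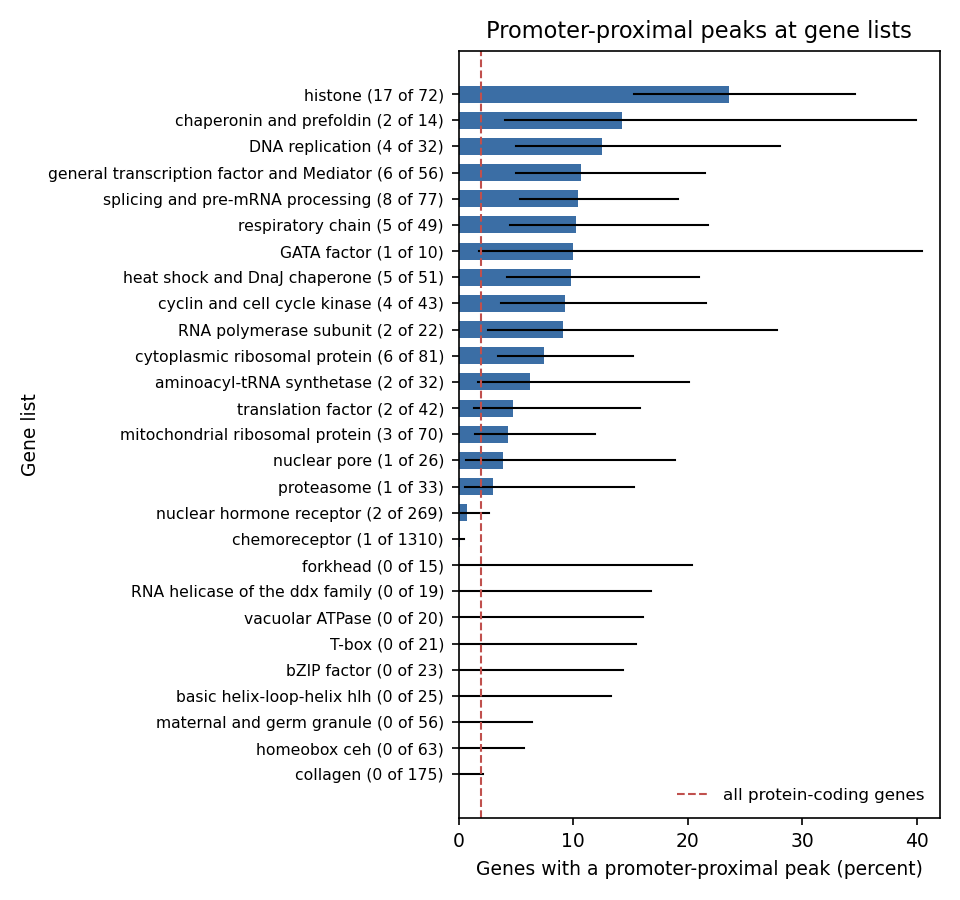
Share of genes in each of 27 lists with a promoter-proximal peak (bars, percent) with 95% Wilson intervals (lines); counts stand beside the names, and the dashed line is the share of all protein-coding genes, 1.95%. Histones have the longest bar, at 23.6%, and 9 lists have no such gene.

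Most of the genes, 318 of 390, were in no list. Several handle chromosomes, and these were picked after their values were seen. Genes of cohesin, condensin and related complexes with a peak were scc-2 (281), smc-3 (177), mix-1 (159), wapl-1 (153) and smc-5 (125). Those of the centriole were sas-5, zyg-1 (150), sas-6 (125) and ssna-1 (84.0). Chromatin regulators included swsn-3 of the SWI/SNF complex (414), the MRG-domain gene mrg-1 (288), the histone methyltransferase genes set-25 (283) and set-16 (140), and chaf-2 of chromatin assembly factor 1 (278). Some of these peaks lay nearer to another coding 5' end. Those of mrg-1, smc-3, set-16 and sas-6 were nearest to spcs-2, mib-1, drr-2 and Y45F10D.7, in that order.

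The base composition at the summits was far from that of the flanks. Windows of 101 bp centred on the summits had 49.2% ± 7.43 G and C (SD, n = 341 peaks), against 38.1% ± 8.74 in windows centred 500 bp upstream and 39.2% ± 8.95 in those 500 bp downstream. Windows at the same distance from the start of all 19973 coding genes, 116 bp upstream, had 34.1% ± 8.22. In 239 peaks (70.1%) the summit window exceeded both flanks, and in 21 it was below both. CpG dinucleotides, over the number that the C and G counts give, were at 1.27 at summits, 1.08 upstream, 1.12 downstream and 1.07 in all promoters. Upstream promoter peaks had 49.9% ± 8.49 G and C (SD, n = 218 peaks) and a CpG ratio of 1.17.

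The rise was narrow. In windows of 25 bp it peaked at 53.7% G and C 10 bp downstream of the summit, and fell to 32.7% at 130 bp upstream and 33.7% at 120 bp downstream, against 38.8% at 600 bp upstream. Around upstream promoter peaks the top was 52.5%, and the lowest values within 200 bp were 37.3% upstream and 35.2% downstream.

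**Figure D5:**
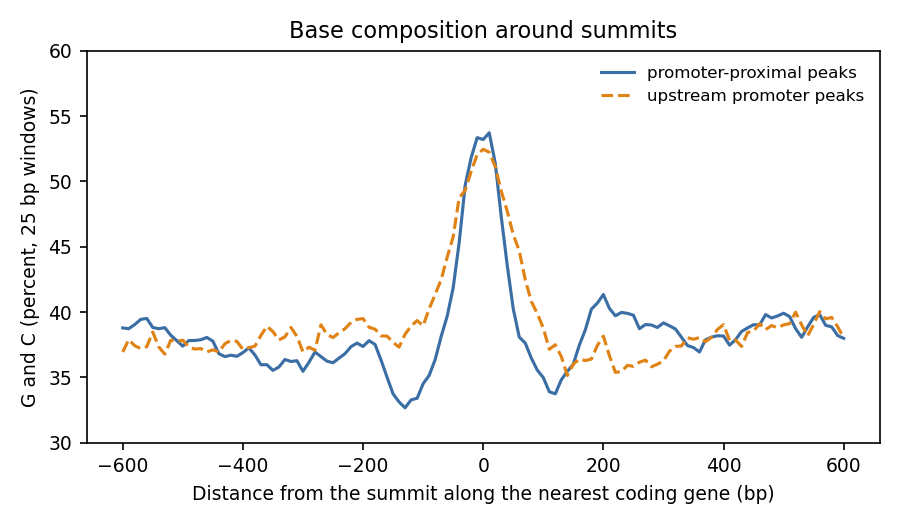
Mean share of G and C in windows of 25 bp (vertical axis) by distance from the summit along the nearest coding gene, for 341 promoter-proximal peaks (solid) and 218 upstream promoter peaks (dashed). Both rise to over 52% at the summit, and the solid line dips to 32.7% and 33.7% on its sides.

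Of 18 words searched on both strands, 5 (27.8%) were more frequent at promoter-proximal summits than in the upstream flanks, and 2 (11.1%) were less frequent. GCGCGC was in 47 summit windows (13.8%) and 5 flanks (two-sided exact McNemar test, adjusted p = 8.03e-09), against 1.42% of all promoters. GGGCGG, the GC box, was in 52 (15.2%) and 9 flanks (exact McNemar test, adjusted p = 1.64e-08), against 2.85% of all promoters. CTTGCGC was in 25 (7.33%) and in no flank on either side, against 0.441% of all promoters. It was put on the list because it led an earlier search of these same peaks, so its place among the 5 is a description, with no p given. All 3 words are made mostly of G and C, as are the summit windows.

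GAGAGA and CTGCGTC passed as well. GAGAGA was in 56 summit windows (16.4%) and 20 flanks (exact McNemar test, adjusted p = 7.71e-05), against 8.88% of all promoters, and CTGCGTC in 22 (6.45%) and 4 flanks (exact McNemar test, adjusted p = 0.000713), against 1.74%. Without replicate 2 neither passed (exact McNemar test, adjusted p = 0.419 and 0.0674), nor did they at an IDR of 0.001 (adjusted p = 0.118 and 0.1 by the same exact test). At least 1 of the 5 words stood in 157 of 341 windows (46.0%), and 184 windows held none.

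The forkhead core was found in few windows. GTAAACA was in 3 summit windows (0.880%, 0.300 to 2.55%) and 1 upstream flank (exact McNemar test, adjusted p = 0.703), against 2.05% of all promoters. Its variant ATAAACA was in 2 summit windows and 10 flanks (exact McNemar test, adjusted p = 0.0771). The summit interval of GTAAACA contains the 2.05% of all promoters. Both forkhead words are rich in A and T, while all promoters had 34.1% G and C and the summits 49.2%. The forkhead words were not compared among windows of like base composition. The GATA site TGATAA was less frequent at summits, with 9 windows (2.64%) against 37 flanks (exact McNemar test, adjusted p = 7.71e-05), and so was TTTCAG, the form of a 3' splice site, with 25 (7.33%) against 80 (exact McNemar test, adjusted p = 4.63e-08). Both words are rich in A and T. No call was made for the bZIP sites TTGCGCAA and TGACGTCA, the E-box CACGTG, the homeobox site TAATTA, the ETS site CCGGAAG, the E2F-like TTTCGCG, the T-box site TCACACC, the tRNA promoter word GGTTCGA or the arbitrary GTGTTG, with adjusted p from 0.0703 to 1 by the same exact test. TTGCGCAA and CTTGCGC overlap in part, as do GCGCGC and runs of CG.

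The contrasts were next set out among windows of like base composition. Among windows with 45 to 55% G and C, GCGCGC was in 30 of 174 at summits (17.2%, 12.4 to 23.5%), in 0 of 137 flanks of both sides (up to 2.73%) and in 5.19% of 1791 promoters (4.26 to 6.32%). CTTGCGC was in 7.47% at summits (4.42 to 12.4%), in 0 of 137 flanks and in 1.28% of promoters (0.857 to 1.92%). As this word came from an earlier search of these same peaks, its shares here are a description. GGGCGG was at 17.2% at summits, 0.730% in flanks and 11.3% of promoters (9.90 to 12.8%). GAGAGA, in contrast, was at 14.4% at summits (9.93 to 20.3%), 6.57% in flanks and 20.7% of promoters (18.8 to 22.6%), and CTGCGTC at 7.47% at summits, 4.38% in flanks and 6.42% of promoters. TTTCAG was at 5.17% at summits, 5.11% in flanks and 7.54% of promoters. TGATAA was at 2.87% at summits, 7.30% in flanks and 5.25% of promoters. The promoter shares of GCGCGC and of CTTGCGC and GGGCGG were higher in these windows than over all promoters, and the summit shares exceeded them by less in proportion. This division was chosen after the data were examined, and it was not tested.

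The next sequences show the strongest peaks that hold CTTGCGC or CTGCGTC beyond those above, with the same 5 words in capitals.
ddp-1, chrIII:1859702-1859802, plus strand: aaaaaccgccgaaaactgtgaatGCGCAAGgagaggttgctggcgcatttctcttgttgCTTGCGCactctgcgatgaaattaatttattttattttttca
srh-16, chrV:12291732-12291832, plus strand: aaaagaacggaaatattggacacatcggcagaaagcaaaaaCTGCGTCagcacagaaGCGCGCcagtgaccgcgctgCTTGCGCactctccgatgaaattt
ecps-1, chrIII:10460715-10460815, minus strand: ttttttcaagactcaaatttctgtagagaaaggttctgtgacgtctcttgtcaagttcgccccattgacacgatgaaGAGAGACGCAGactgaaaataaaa
In the windows of ddp-1 and srh-16 the word CTTGCGC is followed by a like run of bases. Over its 27 occurrences in 25 peaks, the 8 bases after it were compared. The eighth of them was G in 23 of 27 (85.2%) and the third T in 21 of 27 (77.8%), while G makes up 24.6% and T 25.4% of bases in the summit windows read on both strands. At the other 6 places the commonest base was present in 11 to 17 of 27. The word TTTCTCG on its own was in 35 summit windows (10.3%), 14 upstream flanks (4.11%), 10 downstream flanks (2.93%) and 3.40% of all promoters, and 7 windows held both words. This extension was chosen after the sequences were seen and was not tested.

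Words at the summits did not set promoter-proximal peaks apart from upstream promoter peaks. Of the 18, none (0%) passed, and at an unadjusted p under 0.05 there was 1, GGGCGG, in 15.2% of promoter-proximal and 8.26% of upstream promoter windows, a difference of 6.99 points (1.40 to 12.1, two-sided Fisher's exact test, adjusted p = 0.322). For CTTGCGC the shares were 7.33% and 6.88%, a difference of 0.45 points (-4.31 to 4.67), for GCGCGC 13.8% and 15.1%, a difference of -1.35 points (-7.63 to 4.45), and for GAGAGA 16.4% and 13.3%, a difference of 3.12 points (-3.14 to 8.91). These intervals leave room for differences of several points in either direction.

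The median joint signal was 226 for the 52 with GGGCGG and 149 for the other 289, 194 for the 47 with GCGCGC and 148 for the rest, and 186 for the 25 with CTTGCGC and 149 for the rest. With GAGAGA it was 141, against 159 without, and with CTGCGTC 147, against 155. GCGCGC lay a median of 13 bp from the summit and the other 4 words 21 to 25 bp. Words were searched within 50 bp only, which bounds these distances, and they were not compared with words placed at random. These medians were not tested.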

How the data were processed

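The deposited files used were lists of peaks from 2 replicates of tagged early embryos. The assembly is ce11 and 1 control file serves both replicates, per the file lists deposited with each sample; lists were ranked or thresholded by IDR. Neither the aligner nor the peak caller is given in the sources used here. The deposited score is the IDR rescaled to whole numbers, and its lowest value, 830, matches a threshold of 0.01. The deposited signal is the peak caller's value for each peak. The -log10 of the IDR, deposited in the ranked lists, gave the stricter threshold of 0.001; a further 8 columns of each ranked list, with no names, were not used.

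Summits were placed against Ensembl release 115 (WBcel235), without merging. A peak counted for every coding gene whose 5' end had the summit in its window. Replicate signals came from the nearest summit within 200 bp in each ranked list. Words were searched within 50 bp of summits and tested against upstream flanks by the exact McNemar test, and shares between classes by Fisher's exact test, with Benjamini-Hochberg adjustment over 18 words or 6 shares and a threshold of 0.05. Intervals are 95% Wilson or Newcombe intervals. Tests were run in Python 3.11.15 with scipy 1.17.1 and statsmodels 0.14.6. Of them, only the McNemar test was tried on simulated data, and the window rule was tried on summits placed at known positions. The simulated summits and flanks had equal G and C, unlike those of these data, so the simulation does not cover that difference. Peaks and genes were chosen, and the lists drawn up, with earlier results of these data known. Named genes are pes-1, those of the 20 strongest peaks, up to 4 per list with the strongest peaks, and those at the window's edges; the other members of lists, those outside the lists and the sequence extension were picked after their values were seen. Alternatives were the optimal list, stricter IDR, each replicate alone, merged summits, other windows, flanks and distances.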

Additional observations from a re-analysis of the deposited data

How the results depend on the processing

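The number of promoter-proximal peaks stayed within 1.5 times 341 except at an IDR of 0.001 (142), with a window of 100 bp on each side (133) and without replicate 2 (227, against 265 without replicate 1). The share of coding genes with a peak was 2.26% in the optimal list, 0.891% at that IDR, 0.686% with the narrow window, 2.79% with 500 bp upstream and 1.38 to 1.54% when a replicate was left out. The median position moved to -120 bp in the optimal list, -130 bp (-129.5) at an IDR of 0.001, -117 bp with merged summits, -33 bp and -151 bp with the narrow and wide windows and -118 bp without the small RNA filter, and was -128 to -127 bp when a replicate was left out. It was always upstream of the start. The share found in replicate 1's own list was 50.1% for the optimal list and 94.4% at an IDR of 0.001, and 60.8% for peaks of replicate 2 alone. In replicate 2's own list it was 58.2%, 97.2% and, for peaks of replicate 1 alone, 70.5%. The excess of G and C over the upstream flank, 11.0 points, was 10.6 and 11.9 with the narrow and wide windows, 11.4 without the small RNA filter, 9.95 against the downstream flank, 15.1 and 5.10 with windows of 25 and 100 bp on each side, which like the downstream flank were added after seeing the data, and 10.2 to 10.7 when a replicate was left out. The median log2 ratio of replicate 2 over replicate 1, 0.35, was 0.22 without replicate 2, 0.44 without replicate 1 and 0.30 to 0.36 in the other settings.

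Over 7 alternatives each, GCGCGC and GGGCGG passed in 7, as did TTTCAG, and TGATAA passed in 6, GAGAGA in 5 and CTGCGTC in 4, and 5 to 10 words passed against 7. The arbitrary word GTGTTG passed in 3. Of the 6 other shares, 3 passed in the optimal list and 1 at an IDR of 0.001, both alternatives chosen after seeing the data, where the difference from intronic peaks turned to -3.80 points. Genes in the lists with a peak numbered 72, and 42 at an IDR of 0.001, 54 to 62 when a replicate was left out and 57 when peaks counted for the nearest 5' end alone. Why the values moved was not tested; the narrower settings hold fewer peaks. No paired analysis was possible because there is 1 group.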
